A study of Mus musculus with 4 samples.

Results

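The core machinery of autophagy was taken here as 36 genes, chosen by name from the known pathway and looked up by symbol in the expression table of large peritoneal macrophages (LPMs). All 36 genes were among the 18364 genes of the table, and all 36 passed the filter on low values. They encode the proteins that start, build, fill and close the autophagosome. The rule that names them uses no expression value.

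Autophagy is the process by which a cell encloses its own cytoplasm, damaged organelles or microbes in a double membrane, the autophagosome, and delivers the contents to the lysosome. A kinase complex starts the process, a lipid kinase complex marks the membrane, lipid transfer proteins extend it, and ubiquitin-like conjugation attaches LC3 and GABARAP proteins, which cargo receptors bind. In macrophages the same proteins also act in the clearance of microbes and in the breakdown of stored lipid. Since proteins of this pathway are regulated in large part after translation, transcript levels measure the supply of the machinery and not the flux through it.

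LPMs are the resident macrophages of the peritoneal cavity, and the study asked what retinoid X receptors (RXRs), which are nuclear receptors that act in pairs with other receptors, do in them. LPMs were double-sorted as F4/80+ MHCII-negative CD102+ cells from C57BL/6 mice at 8 weeks of age, and bulk RNA was amplified as full-length cDNA and sequenced. WT libraries (n = 2) are labelled wild type, and per the methods of the study the mice carried Rxra fl/fl without Cre. Rxra-KO libraries (n = 2) are labelled Rxra-/-, and Rxra fl/fl was deleted there by Cre driven from the LysM (Lyz2) locus, which acts in myeloid cells and not in every cell. The number of mice behind each library is not given in the sources used here. Whether libraries of a group came from separate mice is not stated, so p-values measure only the spread between these libraries, which may be technical.

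The libraries held 652542 and 947372 reads in WT against 629030 and 1047021 reads in Rxra-KO. *Rxra* itself had 20 and 28 reads in WT against 33 and 77 in those labelled Rxra-KO, so it was not lower there. Values are per gene, so reads from exons outside the deleted part would be counted too, and *Rxra* does not settle the labels. *Lyz2*, the locus that carries Cre, was called lower, with counts of 14263 and 11591 in WT against 6386 and 6230 in Rxra-KO (limma adjusted *p* = 0.00163). Every direction below is between libraries as labelled. Of 8 LPM markers, 6 were called lower in the libraries labelled Rxra-KO, beside 0.969% of all genes. *Timd4* was also lower in both Rxra-KO libraries and *Csf1r* was higher in both, and neither was called. The summed normalised read count of the 8 was 35908 and 37822 in WT against 19176 and 21338 in Rxra-KO. Most of that sum was *Prg4*, at 28429 and 29683 in WT against 15129 and 16567 in Rxra-KO. *Gata6*, a defining LPM factor, had 35 and 65 reads in WT against 3 and 24 in Rxra-KO. Small peritoneal macrophages (SPMs) share the cavity with LPMs and derive from monocytes. Of 8 SPM markers, 7 were called higher, beside 1.32% of all genes, while *Cd226*, with 1 to 3 reads, was not called. The summed counts of the 8 were 112 to 368 in WT and 4335 to 5809 in Rxra-KO. *Cd209d* and *Clec4b1* of that list had 0 reads in both WT libraries. The study reports a nearly pure sort. It names every SPM marker of this list except *Cd226* as upregulated in RXR-deficient LPMs. It drew this from these libraries, so 7 of 8 called is not independent support. The study also measured SPM genes by qPCR in LPMs. Marker lists of T, B, mast, dendritic, mesothelial and erythroid cells and of neutrophils summed to at most 121 in any library, and *Cd2* and *Cd209a* were the only called genes among them.

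Levels are given as the deposited normalised read count, in which 1 read is worth between 0.993 and 1.51 depending on the library. Differences are on the log2(value + 1) scale, as Rxra-KO minus WT, and a gene was called at a limma adjusted *p* under 0.05 over all 18364 genes with a log2 fold change of 0.6 or more in either direction.

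Of the 36 genes, 1 was called, *Ulk2*, with higher values in the libraries labelled Rxra-KO, while 0 were called lower. Over all genes, limma called 2.29%, of which 1.32% of all genes were higher and 0.969% were lower. An unadjusted p under 0.05 was reached by 3 of the 36, namely *Ulk2*, *Vmp1* and *Atg9a*, beside 10.1% of all genes. DESeq2 gave an adjusted p for 29 of the 36 genes and for 8751 of all genes. It called 0 of the 29 and 2.69% of all those genes. Its unadjusted p was under 0.05 for 1 of the 36 genes and for 727 of all 18364 genes. Limma without a mean-variance trend called 0% of all genes and so none of the 36. In that fit, 2 of the 36 and 1579 of all genes had an unadjusted p under 0.05. With edgeR or voom on all 4 libraries, *Ulk2* was again the only called core gene. The median log2 fold change was 0.13 over the 36 genes and 0.02 over all genes, with 22 of the 36 above 0 and 14 below, and it was 0.06 over the 36 genes without Rxra-KO replicate 1. The groups did not overlap for 13 of the 36 genes (36.1%), 8 above and 5 below, and for 38.1% of all genes. The summed count of the 36 genes was 2768 and 2972 in WT against 3103 and 3168 in Rxra-KO. In bulk RNA, fewer cells of a type and less RNA per cell cannot be told apart.

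**Figure D1:**
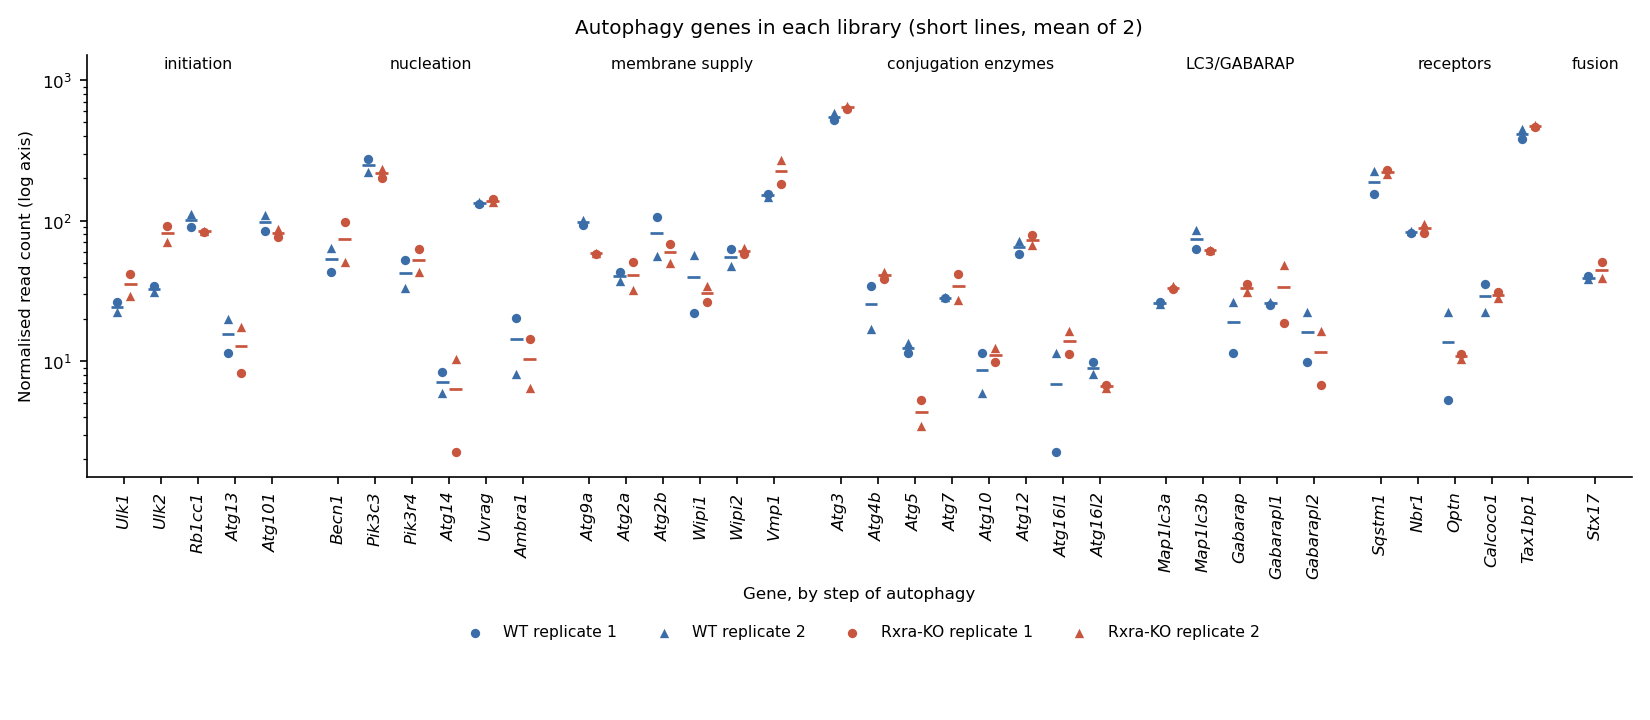
Normalised read count (log axis) of the 36 core autophagy genes in each of the 4 libraries, by step of autophagy. Points are single libraries and short lines are the means of 2. *Ulk2* in Rxra-KO lies at 71.0 and 91.1, above both WT points at 30.9 and 34.1. The 6 nucleation genes overlap between the groups, and over all genes 38.1% do not.

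**Figure D2:**
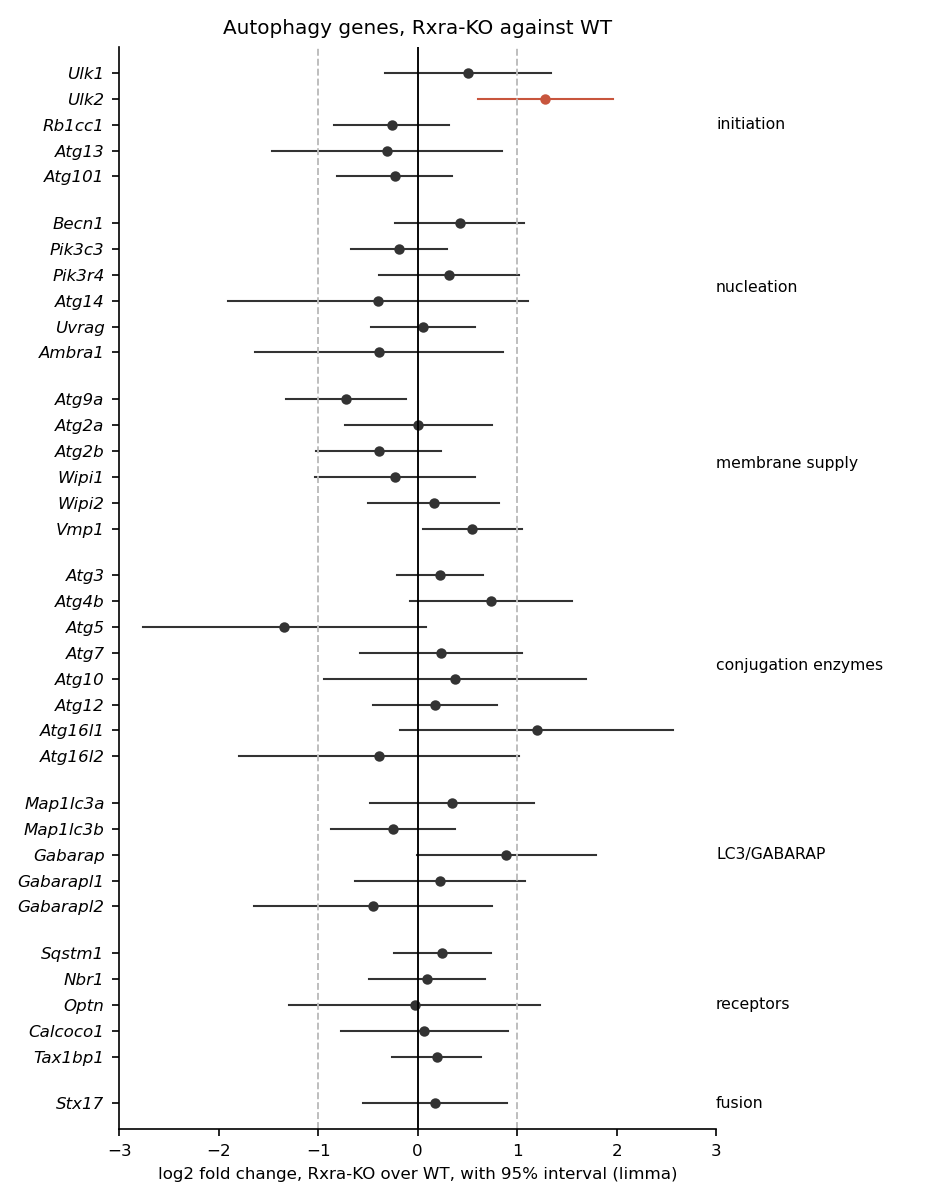
Log2 fold change of each core autophagy gene, Rxra-KO over WT, with the 95% interval of the limma fit (dashed lines, 2-fold in either direction). The red point is *Ulk2*, the only called gene. The intervals of 14 genes lie wholly within 2-fold and those of 22 reach beyond it.

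The widths of the limma intervals followed depth, as the fit shares spread across genes by mean level. Each rests on 227 prior and 2 residual degrees of freedom, so it says little of the gene's own spread. The mean over the 4 libraries was under 10 reads for 6 of the 36 genes, 10 to 30 reads for 11, 30 to 100 reads for 13 and at least 100 reads for 6. The 95% interval reached to either side of the estimate by a median of 1.39 on the log2 scale (2.62-fold) in the lowest class, 0.84 (1.78-fold) and 0.63 (1.55-fold) in the middle classes and 0.48 (1.40-fold) in the highest. For 14 genes the whole interval lay within a 2-fold change, whereas for 22 genes a 2-fold change in at least one direction was inside the interval. Reads carry no molecular identifiers, so they are not independent molecules.

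**Figure D3:**
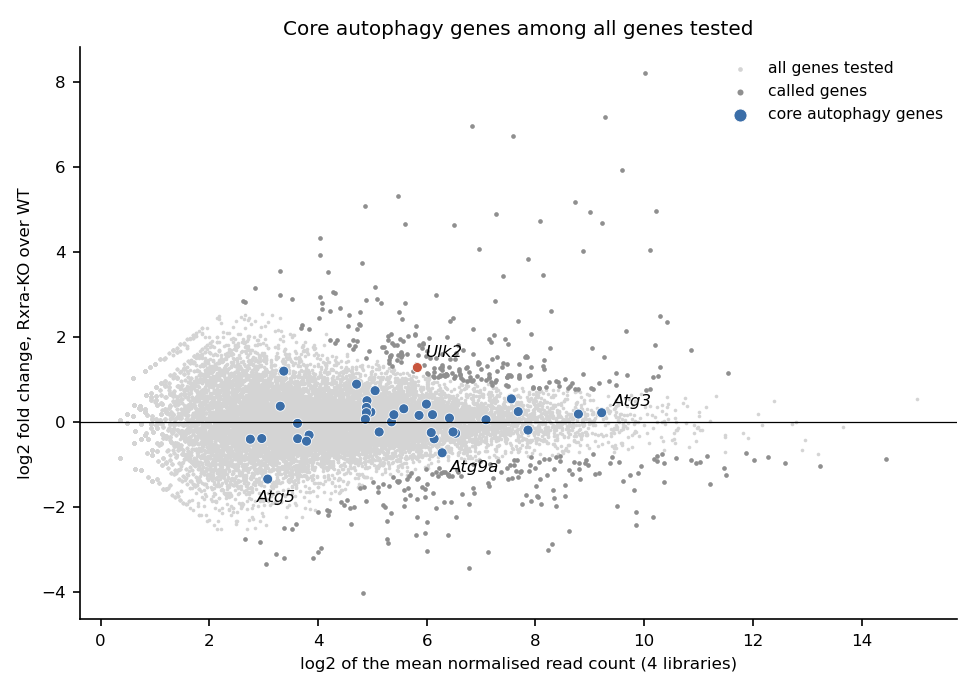
Log2 fold change, Rxra-KO over WT, against log2 of the mean normalised read count for all 18364 genes (light grey), called genes (dark grey) and core autophagy genes (blue, or red where called). The core genes lie between -1.34 (*Atg5*) and 1.28 (*Ulk2*), and *Atg5* and *Atg16l1*, which lie about as far from 0 as *Ulk2*, had a mean under 10 reads.

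Initiation was examined first. The initiation complex is built around a serine/threonine kinase, ULK1 or its paralog ULK2, held by the scaffold *Rb1cc1* (FIP200) and the adaptors *Atg13* and *Atg101*. It receives the signals of mTOR and AMPK. *Ulk2* was the only member of the complex that was called.

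*Ulk2* had a normalised read count of 34.1 and 30.9 in WT against 91.1 and 71.0 in Rxra-KO, from 22, 28, 60 and 71 reads. Both Rxra-KO libraries were above both WT libraries by more than the difference within either group. The log2 fold change was 1.28 (standard error 0.34, 95% interval 0.60 to 1.96, limma adjusted *p* = 0.0145), or 2.43-fold. The call was lost when any of 3 libraries was left out. Each of these fits has 1 library in a group and also called fewer of all genes, so the loss does not set *Ulk2* apart. The limma adjusted *p* was 0.453 without Rxra-KO replicate 1, 0.0680 without Rxra-KO replicate 2 and 0.122 without WT replicate 2, while the log2 fold change stayed between 1.11 and 1.46 in these fits. It was 0.520 in limma without the mean-variance trend and 0.189 in DESeq2.

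*Ulk1* had counts of 26.5 and 22.2 in WT against 41.4 and 29.3 in Rxra-KO. The groups did not overlap for *Ulk1* either, but the gap between them, from 26.5 to 29.3, was smaller than the difference within either group, and the log2 fold change of 0.50 was not called (95% interval -0.33 to 1.34, limma adjusted *p* = 0.800). Per kilobase of the longest coding transcript, the level of *Ulk1* was 4.67 ± 0.577 in WT and 6.78 ± 1.64 in Rxra-KO, and that of *Ulk2* was 5.66 ± 0.388 and 14.1 ± 2.47 (SD, n = 2). The transcripts of *Ulk2* held no 31-base word that another gene of the GENCODE M21 set also held, and those of *Ulk1* shared 0.331% of theirs. SPM markers rose in the same libraries as *Ulk2*, and their part in its difference was not tested.

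The scaffold and the adaptors were not called. *Rb1cc1* had counts of 90.1 and 112 in WT against 83.6 and 83.9 in Rxra-KO, so the groups did not overlap. Its log2 fold change was -0.26 (95% interval -0.84 to 0.31, limma adjusted *p* = 0.887). Other transcripts hold 12.8% of the 31-base words of *Rb1cc1*. *Atg101* overlapped between the groups, with 84.0 and 110 in WT against 76.0 and 87.9 in Rxra-KO. *Atg13*, with 5 to 18 reads, had a log2 fold change of -0.30 and an interval of -1.46 to 0.85. The median over the 5 initiation genes was -0.23, with 3 of the 5 genes below 0, and it lay above 0 without Rxra-KO replicate 1 (0.19) or without WT replicate 2 (0.08).

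As *Ulk2* was the only called core gene, the 250 bases before its RefSeq start site (GRCm38.p6) are shown, beside the same stretch of its paralog *Ulk1* and the start sites of *Tbc1d14*, the only other called autophagy gene, described below. Capitals mark matches, on either strand, to AGGTCA, a motif bound by nuclear receptors, or to CACGTG, the core of the element bound by TFEB and its relatives, and the longer TCACGTGA, every match of which is also a match to CACGTG. *Ulk2* lies on the minus strand (chr11:61855093-61855342), as do *Ulk1* (chr5:110810082-110810331) and both *Tbc1d14* start sites (chr5:36582398-36582647 for a and chr5:36530624-36530873 for b), and each sequence is written in the direction of the gene.
Ulk2: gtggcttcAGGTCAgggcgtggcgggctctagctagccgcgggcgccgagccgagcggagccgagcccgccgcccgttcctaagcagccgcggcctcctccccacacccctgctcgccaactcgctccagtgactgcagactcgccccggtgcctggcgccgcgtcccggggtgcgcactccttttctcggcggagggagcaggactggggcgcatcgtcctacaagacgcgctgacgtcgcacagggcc
Ulk1: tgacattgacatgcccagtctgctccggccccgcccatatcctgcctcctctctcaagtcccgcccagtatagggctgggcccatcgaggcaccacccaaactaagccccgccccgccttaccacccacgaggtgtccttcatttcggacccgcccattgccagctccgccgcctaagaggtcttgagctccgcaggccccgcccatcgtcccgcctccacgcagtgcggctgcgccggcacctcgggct
Tbc1d14 a: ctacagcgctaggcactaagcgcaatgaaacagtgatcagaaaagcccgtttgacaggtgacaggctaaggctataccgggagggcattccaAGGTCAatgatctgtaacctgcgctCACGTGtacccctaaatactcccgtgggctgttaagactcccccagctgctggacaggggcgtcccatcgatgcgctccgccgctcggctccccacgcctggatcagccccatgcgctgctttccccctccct
Tbc1d14 b: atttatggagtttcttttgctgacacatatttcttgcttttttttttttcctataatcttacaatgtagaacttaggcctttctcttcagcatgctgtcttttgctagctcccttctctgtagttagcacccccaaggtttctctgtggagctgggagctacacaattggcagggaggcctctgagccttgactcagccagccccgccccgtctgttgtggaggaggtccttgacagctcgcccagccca
The window of *Ulk2* held 1 match to AGGTCA, which begins 242 bases before the start, and that of *Ulk1* held none of the 3 motifs. *Tbc1d14* held AGGTCA 158 bases and CACGTG 133 bases before the start in window a and none in window b. RefSeq windows were at hand for 30 of the 36 core genes. AGGTCA was found for 6 of these 30 genes (20%) and for 15.8% of 27025 genes, CACGTG for 3 of 30 (10%) and for 6.86%, and TCACGTGA for 1 of 30 (3.33%) and for 0.907%. Of 88 other autophagy genes with windows, AGGTCA was found for 10 (11.4%), CACGTG for 15 (17%) and TCACGTGA for 5 (5.68%). The core genes with AGGTCA were *Ulk2*, *Vmp1*, *Pik3r4*, *Nbr1*, *Tax1bp1* and *Gabarapl2*, and those with CACGTG were *Atg3*, *Atg5* and *Atg7*. A match describes the letters only, and binding was not measured here.

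In the nucleation complex no gene separated the groups. The lipid kinase *Pik3c3* (VPS34), its regulatory subunit *Pik3r4* (VPS15) and the scaffold *Becn1* (Beclin 1) make the phosphoinositide that marks the new membrane, with *Atg14* or *Uvrag* as alternative subunits that direct the complex, and *Ambra1* as a binding partner of Beclin 1. The groups overlapped for 6 of 6 genes, and 0 of 6 were called, with 0 of 6 at an unadjusted p under 0.05 in limma. Over all genes the groups did not overlap for 38.1%, limma called 2.29% and an unadjusted p under 0.05 was reached by 10.1%. At these shares, 0 of 6 does not set the step apart. The median log2 fold change was -0.07 and ranged from -0.18 to 0.11 with 1 library left out at a time.

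*Pik3c3*, with 134 to 233 reads, had counts of 276 and 221 in WT against 203 and 232 in Rxra-KO. Its interval was -0.67 to 0.29, within a 2-fold change. *Uvrag* was closest to even, with 131 and 136 in WT against 142 and 136 in Rxra-KO (log2 fold change 0.06, 95% interval -0.47 to 0.58).

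*Becn1* had 43.2 and 63.5 in WT against 97.1 and 51.1 in Rxra-KO. Only Rxra-KO replicate 1 was high, and without that library the log2 fold change went from 0.42 to -0.03. Transcripts of other genes hold 40% of the 31-base words of *Becn1*, chiefly those of *Cntd1*, and 19.3% of those of *Uvrag*, so the counts of both are uncertain where reads could not be assigned. *Atg14* and *Ambra1* had at most 13 reads in any library, and their intervals reached from -1.91 to 1.10 and from -1.64 to 0.86.

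Membrane supply held the other genes with an unadjusted p under 0.05, 1 in each direction. *Atg9a* encodes the membrane protein of the vesicles that seed the autophagosome, and *Vmp1* encodes a protein of the endoplasmic reticulum that acts where the membrane grows. *Atg2a* and *Atg2b* transfer lipid into it, and *Wipi1* and *Wipi2* bind its phosphoinositide. None of the 6 was called.

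*Atg9a* had counts of 93.1 and 101 in WT against 58.0 and 59.1 in Rxra-KO. Both Rxra-KO libraries were below both WT libraries, and the libraries within each group lay close together. The log2 fold change was -0.72 (95% interval -1.33 to -0.12), with an unadjusted p of 0.0195 and a limma adjusted *p* = 0.317. Other transcripts hold 32.4% of the 31-base words of *Atg9a*, chiefly the gene model *Gm29253*.

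*Vmp1* had counts of 155 and 147 in WT against 181 and 270 in Rxra-KO. The groups did not overlap, and the Rxra-KO libraries differed from each other more than the nearer of them differed from WT. The log2 fold change was 0.55 (95% interval 0.05 to 1.05), with an unadjusted p of 0.0316 and a limma adjusted *p* = 0.399.

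*Atg2a*, *Atg2b*, *Wipi1* and *Wipi2* overlapped between the groups, with log2 fold changes from -0.39 (*Atg2b*) to 0.16 (*Wipi2*). Other transcripts hold 10.6% of the 31-base words of *Atg2b*. *Wipi1* had 22.0 and 57.0 within WT, a wider difference than that between the group means of 39.5 and 30.3.

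Conjugation was split into enzymes and the proteins they attach. *Atg7* is the activating enzyme, *Atg3* and *Atg10* pass on LC3 and *Atg12*, *Atg4b* is the protease that matures LC3, and *Atg5*, joined to *Atg12*, forms with *Atg16l1* the complex that brings LC3 to the membrane. *Atg16l2* is a paralog of *Atg16l1*. Of these 8 genes 0 were called and 0 had an unadjusted p under 0.05 in limma, beside 2.29% and 10.1% of all genes. The median log2 fold change was 0.23.

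*Atg3* was the deepest of all 36 genes, with 341 to 660 reads, and had counts of 517 and 584 in WT against 626 and 656 in Rxra-KO. Both Rxra-KO libraries were higher, but the gap between the groups, from 584 to 626, was smaller than the difference within WT, and the log2 fold change was 0.22 (95% interval -0.21 to 0.65). *Atg4b* was also higher in both, with 34.1 and 16.8 in WT against 38.4 and 43.2 in Rxra-KO (log2 fold change 0.74, 95% interval -0.07 to 1.55).

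The values farthest from 0 among the enzymes rested on few reads. *Atg5* had 7 and 12 reads in WT against 3 and 3 in Rxra-KO, counts of 11.4 and 13.6 against 5.27 and 3.48. The Rxra-KO libraries were lower, at no more than 3 reads each, and the log2 fold change of -1.34 had an interval of -2.76 to 0.08 (limma adjusted *p* = 0.542). Scaled for depth, the ratio of summed reads, Rxra-KO over WT, was 0.299, with an exact binomial 95% interval of 0.0977 to 0.779. That interval was computed for *Atg5* only. It pools the libraries of a group, treats reads as independent and covers counting error only, so it does not show that the groups differ. *Atg16l1* had 1 and 10 reads in WT against 7 and 16 in Rxra-KO, so the groups overlapped at a log2 fold change of 1.20 (95% interval -0.17 to 2.57). *Atg16l2*, with 4 to 7 reads, had a log2 fold change of -0.39 (95% interval -1.80 to 1.02), and *Atg10*, with 5 to 12 reads, one of 0.37.

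*Atg7* and *Atg12* overlapped between the groups, at log2 fold changes of 0.24 and 0.18. *Atg7* was near equal in 3 libraries, at 27.3 to 28.7, and reached 41.4 in Rxra-KO replicate 1.

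LC3 and GABARAP proteins are small ubiquitin-like proteins that are fixed to the lipid of the autophagosome. Per kilobase, the WT level was 28.1 ± 6.00 for *Map1lc3b*, 23.4 ± 0.638 for *Map1lc3a*, 14.2 ± 0.620 for *Gabarapl1*, 14.0 ± 7.97 for *Gabarap* and 9.57 ± 5.23 for *Gabarapl2* (SD, n = 2). Only the step from *Map1lc3a* to *Gabarapl1* was larger than the spread of both neighbours. Processed copies of genes of this family could take up reads, and other transcripts held 25.2% of the 31-base words of *Gabarapl1*, 15.3% of those of *Gabarapl2* and 8.64% of those of *Map1lc3b*, but none of those of *Gabarap* or *Map1lc3a*.

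None of the 5 was called, and their directions differed. *Gabarap* had counts of 11.4 and 26.6 in WT against 35.4 and 31.3 in Rxra-KO, so the groups were apart but WT replicate 1 stood well below WT replicate 2. Its log2 fold change of 0.89 had an interval of -0.01 to 1.79 (limma adjusted *p* = 0.501), and *Gabarapl1* overlapped, with 18.8 and 48.2 in Rxra-KO.

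*Map1lc3a* was tight within groups, with 26.5 and 25.5 in WT against 32.4 and 34.3 in Rxra-KO, for a log2 fold change of 0.35. *Map1lc3b* lay the other way, with 62.8 and 85.2 in WT against 61.0 and 62.1 in Rxra-KO, for a log2 fold change of -0.25 (95% interval -0.87 to 0.38). For *Map1lc3b* WT replicate 1 was within 1 read's worth of the nearer Rxra-KO library, so the lack of overlap rests on a small gap. *Gabarapl2* overlapped, at 4 to 20 reads.

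Of the 5 cargo receptors, 2 had a mean of at least 100 reads, and 4 of the 5 intervals lay within a 2-fold change. *Calcoco1* and *Optn* had means of 22.75 and 10 reads. *Sqstm1* (p62), *Nbr1*, *Optn* and *Tax1bp1* bind ubiquitin-marked cargo and LC3 proteins, and *Calcoco1* is a receptor for parts of the endoplasmic reticulum and Golgi. None was called, and the median log2 fold change was 0.10, or 0.30 without WT replicate 2.

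*Sqstm1* had counts of 155 and 224 in WT against 228 and 215 in Rxra-KO. WT replicate 1 was low and the other 3 libraries lay together, so the log2 fold change of 0.25 (95% interval -0.24 to 0.74) became -0.02 without that library. Other transcripts hold 16.4% of the 31-base words of *Sqstm1*, chiefly those of *Mrnip*. *Tax1bp1* had 382 and 446 in WT against 464 and 478 in Rxra-KO, higher in both but by less than the difference within WT (log2 fold change 0.19, 95% interval -0.25 to 0.63).

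*Nbr1* ranged from 81.0 to 94.8 over the 4 libraries (log2 fold change 0.10). *Calcoco1* had a WT range of 22.2 to 35.6 that enclosed both Rxra-KO libraries. *Optn* had 3 and 20 reads in WT against 7 and 10 in Rxra-KO, and a 2-fold change in either direction was not detectable at this depth (95% interval -1.29 to 1.23).

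*Stx17*, the SNARE protein on closed autophagosomes that drives fusion with the lysosome, had counts of 40.1 and 38.5 in WT against 50.4 and 39.2 in Rxra-KO. The groups overlapped, and the log2 fold change of 0.17 had an interval of -0.55 to 0.90.

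To place the core genes, 104 further autophagy genes were taken from general knowledge, and 102 of them were in the table. Of the 102 genes, 1 was called, *Tbc1d14*, and 0 were called lower, beside 2.29% of all genes called. An unadjusted p under 0.05 was reached by 12 (9 higher and 3 lower), beside 10.1% of all genes. The median log2 fold change was 0.20, and the groups did not overlap for 41 genes (40.2%), beside 38.1% of all genes.

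*Tbc1d14* encodes a protein that binds the Rab11 GTPase and holds back autophagosome formation when overproduced. It had counts of 18.9 and 11.4 in WT against 62.5 and 64.1 in Rxra-KO, from 12, 10, 41 and 64 reads. Both Rxra-KO libraries were above 3 times the higher WT library, and the log2 fold change was 2.03 (standard error 0.41, 95% interval 1.22 to 2.85, limma adjusted *p* = 0.000199). The study names *Tbc1d14* from these libraries, so its direction is not independent evidence. It was called in each fit except limma without the mean-variance trend (adjusted *p* = 0.472, against 5.70e-05 to 0.0340 in the others). As for *Ulk2*, SPM markers rose in the same libraries, and their part in the difference was not tested.

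By group, the numbers with an unadjusted p under 0.05 in limma were 1 of 10 other core genes, 1 of 29 genes of mTOR and AMPK control, 0 of 8 transcription factors of autophagy, 1 of 9 negative regulators, 2 of 6 lipid transfer genes and other partners, 6 of 24 selective receptors with their kinase, and 1 of 16 genes of fusion with the lysosome. The share over all genes was 10.1%, the groups are small, and of these genes only *Tbc1d14* was called. The medians ranged from -0.24 (lipid transfer and other partners) to 0.34 (transcription factors). No transcription factor had an interval within a 2-fold change, and 5 of these 8 genes had a mean under 10 reads.

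The genes of this wider set were not called in limma apart from *Tbc1d14*, but 2 were called in other fits and are named after their values were seen. *Sesn1*, a sestrin that restrains mTOR under stress, had counts of 88.6 and 72.1 in WT against 199 and 114 in Rxra-KO (log2 fold change 0.91, limma adjusted *p* = 0.0613), and it was called by edgeR (adjusted *p* = 0.0396) and by limma without Rxra-KO replicate 2 (adjusted *p* = 0.0129). *Ncoa4*, the receptor that delivers ferritin to the lysosome, had 8.33 and 43.9 in WT against 39.9 and 50.2 in Rxra-KO, so that it was called without WT replicate 2 but overlapped between the groups with all 4 libraries.

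**Figure D4:**
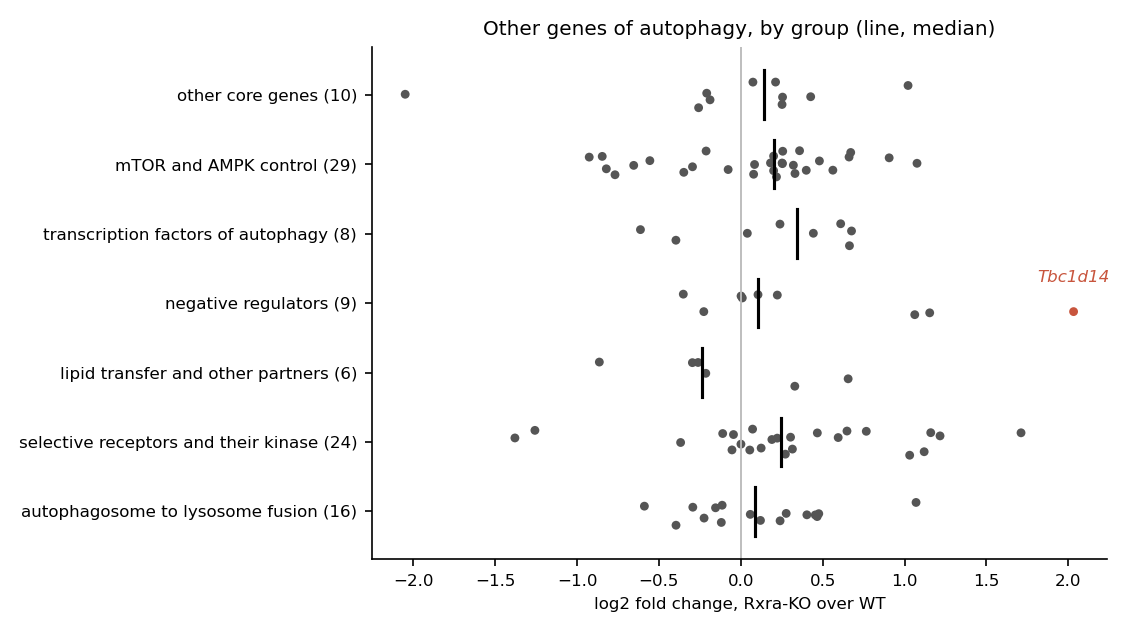
Log2 fold change, Rxra-KO over WT, of 102 other autophagy genes by group, with the number of genes in brackets and the median as a black line. The red point is *Tbc1d14* at 2.03, the only called gene. The medians of the groups lie between -0.24 and 0.34.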

How the data were processed

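RNA of sorted LPMs was sequenced in 4 libraries (2 WT and 2 Rxra-KO) from a SMART-Seq v4 low-input kit without molecular identifiers. Per the labels and methods, the authors quantified transcripts with Kallisto 0.43.0, summarised them to genes with tximport and scaled them by TMM for limma. The authors left out samples that clustered away from their condition, and such samples were not analysed here. Such a choice can narrow the spread within groups, so p-values, intervals and counts of groups apart may be too favourable. By how much was not tested. The deposited signal is a normalised read count, equal to (reads + 0.5) over the scaled library size, so whole reads were recovered for 100% of the values (within 0.001 of a read). The methods name human GRCh38 for these mouse libraries, and the reference used was not settled, so sequences and transcript lengths from RefSeq (GRCm38.p6) and GENCODE M21 are descriptions beside the counts.

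Each gene was fitted on log2(value + 1) with limma 3.58.1 (R 4.3.3, empirical Bayes with a mean-variance trend, no covariate, two-sided tests, Benjamini-Hochberg adjustment over 18364 genes). The pseudocount understates the change of low genes. Genes needed a value of 1 or more in 2 or more libraries, which removed none. With 2 libraries against 2, the smallest two-sided p of an exact permutation test is 0.333, and each p rests on the spread shared across genes (227 prior and 2 residual degrees of freedom). Alternatives were edgeR 4.0.16, DESeq2 1.42.0 and voom on recovered reads, other scalings, pseudocounts and filters, and leaving out each library. The fits were tested on simulated data with 200 changed genes. The text names all core genes, called genes among the other autophagy genes, and *Rxra*. Members and lists were chosen with earlier results of these data known. The replicate numbers are shared between groups by the titles, and deviations from the group means correlated by only 0.0350 between same-numbered libraries, over 2 pairs, so the numbers were not taken to pair the libraries.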

Additional observations from a re-analysis of the deposited data

How the results depend on the processing

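The number of core genes called stayed at 1 (*Ulk2*, higher) with pseudocounts of 0.1 and 5, other scalings, a stricter filter (34 core genes left), edgeR and voom, and it was 0 without a mean-variance trend, with DESeq2 (29 core genes with an adjusted p) and at an adjusted p under 0.01. With 1 library left out at a time it ranged from 0 to 1, at 0 without WT replicate 2 or either Rxra-KO replicate. Over all genes, 424 and 417 were called with these pseudocounts, 406 and 434 with other scalings, 446 with edgeR and 422 with voom. With the stricter filter it was 375 of 10359 genes, with DESeq2 235 of 8751, and without the trend 0. Fewer of all genes were called with any library left out than with all 4. The number of other autophagy genes called was 0 without the trend and 2 with edgeR. With 1 library left out at a time, the log2 fold change of *Tbc1d14* lay between 1.69 and 2.37. The fit with a replicate block called 1 core gene (*Ulk2*, adjusted *p* = 0.00649) and 2 other autophagy genes, *Tbc1d14* and *Sesn1*, and 540 genes in all against 421. Dropping the filter changed no value, since every gene passed it. The fit without the trend left no gene of the table called, and the cause was not tested.

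Over 17 alternatives, 14 of the 36 core genes kept their direction and their side of the threshold. *Atg5*, *Atg16l1* and *Atg16l2* did so where they had an adjusted p, which DESeq2 gave for none of the 3 and the stricter filter not for *Atg16l2*. *Ulk2* lost its call as given, and 18 changed direction, none of them called in any fit. *Atg2a* turned to -0.015 with DESeq2 size factors and to -0.027 with voom. The rest turned when a library was left out, with log2 fold changes between the following bounds: *Atg13* -0.80 to 0.19, *Becn1* -0.033 to 0.88, *Pik3r4* -0.0071 to 0.64, *Atg14* -1.31 to 0.50, *Ambra1* -1.01 to 0.23, *Atg2a* -0.31 to 0.32, *Atg2b* -0.85 to 0.068, *Wipi1* -0.90 to 0.44, *Wipi2* -0.043 to 0.36, *Atg7* -0.053 to 0.53, *Atg10* -0.039 to 0.79, *Gabarapl1* -0.43 to 0.88, *Gabarapl2* -1.03 to 0.13, *Sqstm1* -0.016 to 0.51, *Nbr1* -0.0081 to 0.20, *Optn* -0.97 to 0.91, *Calcoco1* -0.26 to 0.40 and *Stx17* -0.0028 to 0.35. With 2 libraries a group and 30 of 36 core genes under a mean of 100 reads, small differences were not detectable.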
